A study of Rattus norvegicus with 13 samples.

Results

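Ezrin family and apical polarity genes were followed in the ventricular zone (VZ) of newborn rats, and the members were found by gene name among 14716 rows of normalized counts. Of 10 names, 9 were found, each in 1 row that carries an Ensembl transcript identifier: the ezrin family genes *Ezr* and *Rdx*, the Par complex genes *Pard3*, *Pard3b*, *Pard6b*, *Prkci* and *Prkcz*, the Crumbs gene *Crb2* and the basolateral gene *Llgl1*. No row is named *Msn*, so moesin is not analysed here. The genes were chosen by name, from a list drawn up with earlier results of these data known, among them differences between the groups compared below. The values of the members are therefore a description, and the tests, made over all rows, support nothing about the list. Had a name had several rows, the one with the highest mean over all 13 pups would have been used. Because each gene is represented by 1 transcript, nothing is said here of isoforms. The samples were male Long Evans pups on PN2. Control pups (n = 7) came from dams given 0 ppm propylthiouracil (PTU), an inhibitor of thyroid hormone synthesis. PTU pups (n = 6) came from dams given 3 ppm in the drinking water. The study calls these groups euthyroid and hypothyroid. Each litter gave 1 pup, so each value is a separate litter, and the posterior ventricular epithelium was cut out by laser, with every cell type inside the outline included. The methods describe the RNA as partly degraded on average, and values per pup were not at hand.

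Radial glia are polarized cells whose apical endfeet form the surface of the ventricle. Ezrin, radixin and moesin tie the plasma membrane of such surfaces to actin filaments beneath it. The Par complex (the scaffold PARD3, the adaptor PARD6 and an atypical protein kinase C) and the Crumbs complex mark the apical domain, while LLGL1 acts on the basolateral side and is excluded from the apical side by phosphorylation. Ezrin is also abundant in other epithelia that face the cerebrospinal fluid, the choroid plexus among them.

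The comparison asked whether transcripts of the apical domain differed between PTU exposed and control pups. *Ezr* and *Crb2* had the largest differences of the 9 members, with PTU means of 0.669 and 0.686 times the control means, and in *Ezr* the highest PTU pup was below the lowest control pup. The atypical protein kinases and *Pard3* had group means within 0.1 of each other on the log2 scale. No member was called: in limma, a linear model fitted across all 14606 rows with a mean of at least 10, 0 of the 9 members and 0.00% of all rows had a Benjamini-Hochberg adjusted p of at most 0.05. With an unadjusted p under 0.05, 3 members were lower in PTU pups (*Ezr*, *Crb2* and *Pard6b*) and 0 were higher. By the same criterion 2383 rows, or 16.3% of all rows, stood out in either direction, 8.20% lower and 8.11% higher. The split was near even under 3 other scalings (1127 rows higher and 1244 lower with TMM factors, 1170 and 1265 after quantile normalization, 1195 and 1123 with the same total computed without the 3 highest rows). With the same total over all rows for every pup, 1584 rows were higher and 81 lower. The exact permutation test, run on all rows, likewise left 0 rows with an adjusted p of at most 0.05. Means of the log2 values were lower in PTU pups for 8 of the 9 members, against 49.3% of all rows. The median log2 fold change was -0.14 over the members and 0.0038 over all rows. After scaling the pups to a common total over all rows, which moves the median of all rows to 0.20, means were lower for 4 members and 0 members had an unadjusted p under 0.05. With that total computed without the 3 highest rows, which have no gene name, means were lower for 8 members and 2 had an unadjusted p under 0.05.

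**Figure D1:**
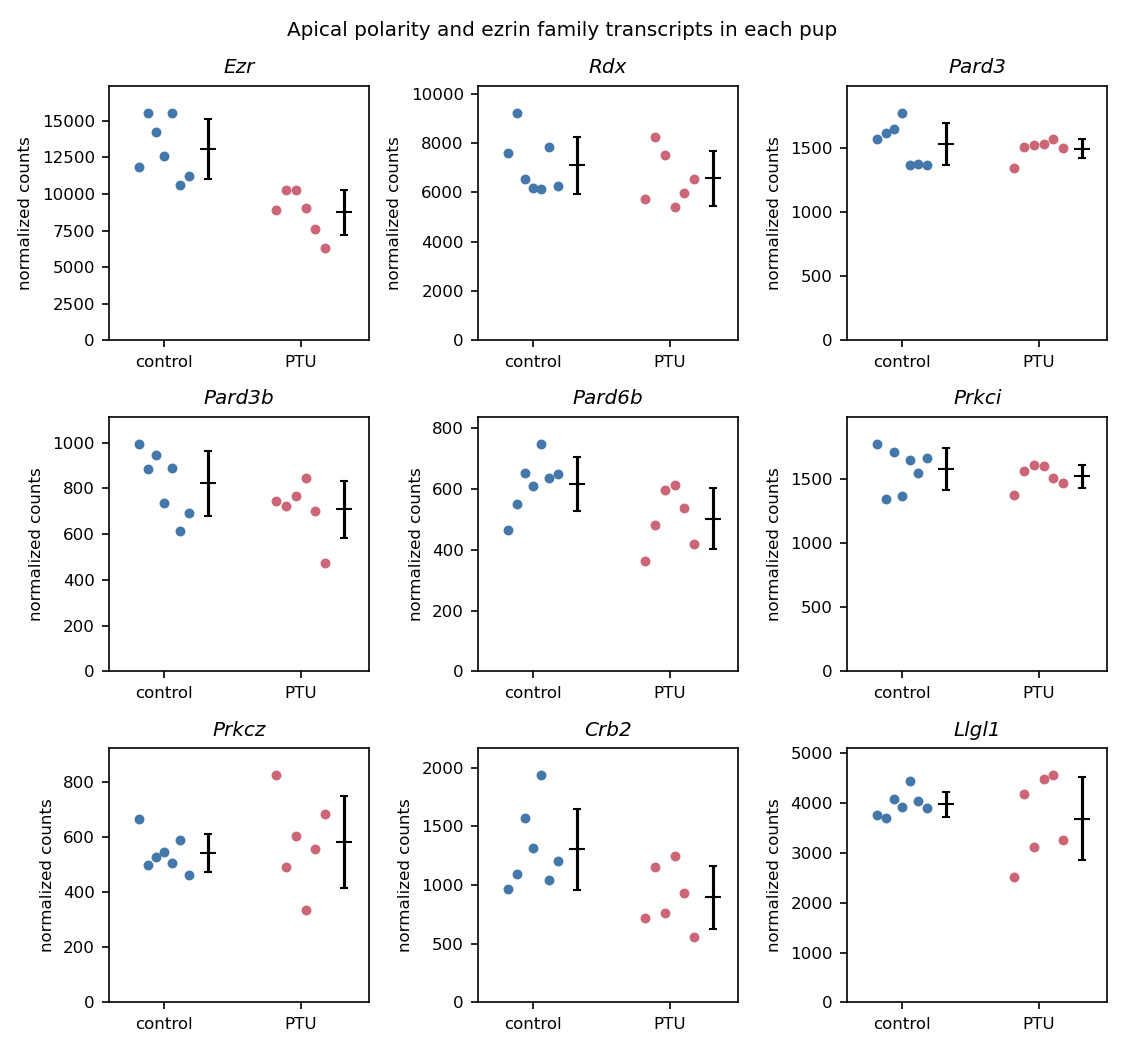
Normalized counts of the 9 members (vertical axes, each from 0) in control and PTU pups. Each point is 1 pup, and the bar beside the points is the mean with its SD; in *Ezr* the PTU pups end at 10284 and the control pups begin at 10623, while the groups overlap in the other 8 members.

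*Ezr* encodes ezrin, and its row is the transcript ENSRNOT00000112255. In control pups it ranged from 10623 to 15500 normalized counts (median 12582). The PTU pups lay between 6310 and 10284 (median 8993). The groups were separated by a narrow gap, between control pup 6 and PTU pup 2. Groups that did not overlap, with PTU pups below, were found in 1 of the 9 members and in 0.260% of all rows (0.596% in either direction). The means were 13060 ± 2014 (SD, n = 7) and 8733 ± 1551 (SD, n = 6), a ratio of 0.669. The log2 fold change was -0.59 (standard error, SE, 0.12, 95% interval -0.85 to -0.32), and limma gave an adjusted p of 0.122. By exact permutation (two-sided) the p was 0.00117 before and 0.169 after adjustment over all rows. The call depended on the setting: without PTU pup 2, the adjusted p of *Ezr* in limma was 0.0354. In that fit 179 rows were called. The unadjusted limma p of *Ezr* was 0.000126 there and 0.000188 with all pups. The adjusted p of *Ezr* was also under the threshold, at 0.0413, with array quality weights, which are computed from the expression values and not from RNA quality. Of 29 alternative settings, 3 called *Ezr*. The log2 fold change was -0.38 (adjusted p = 0.484) with the same total for every pup. Without the 3 highest rows in that total it was -0.58, and it was -0.59 with TMM factors and -0.61 after quantile normalization.

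*Rdx*, which encodes radixin, showed no such separation. Normalized counts were between 6155 and 9209 in control pups (median 6526) and between 5407 and 8257 in PTU pups (median 6255). Only 3 PTU pups were below the lowest control pup. Its log2 fold change was -0.12 (95% interval -0.36 to 0.13, limma, adjusted p = 0.645), and -0.0511 without control pup 2. The reads behind these transcripts, estimated from the step between low values, numbered at least 7466 for *Ezr* and 4555 for *Rdx* in every pup. Counting error of that many reads is at most 1.48% of the value. It leaves out variation from dissection, amplification and library preparation, since reads copied by PCR are not independent molecules. The counting model of the authors divides reads that match several transcripts, and whether reads were divided within the ezrin family was not tested.

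A ratio within a pup is free of the scaling between pups, but not of the mix of cell types in that pup's sample. The part of that mix in the ratio was not tested. The log2 ratio of *Ezr* to *Rdx* was 0.88 ± 0.30 (SD) in control pups, with a range from 0.44 to 1.33. In PTU pups it was 0.41 ± 0.28 (SD), with a range from -0.054 to 0.75. All 6 PTU pups were below the control mean and 3 were below the lowest control pup, and the groups overlapped. The 2 transcripts may differ in length, so the ratio is not a ratio of molecules, and its difference between groups was not tested.

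**Figure D2:**
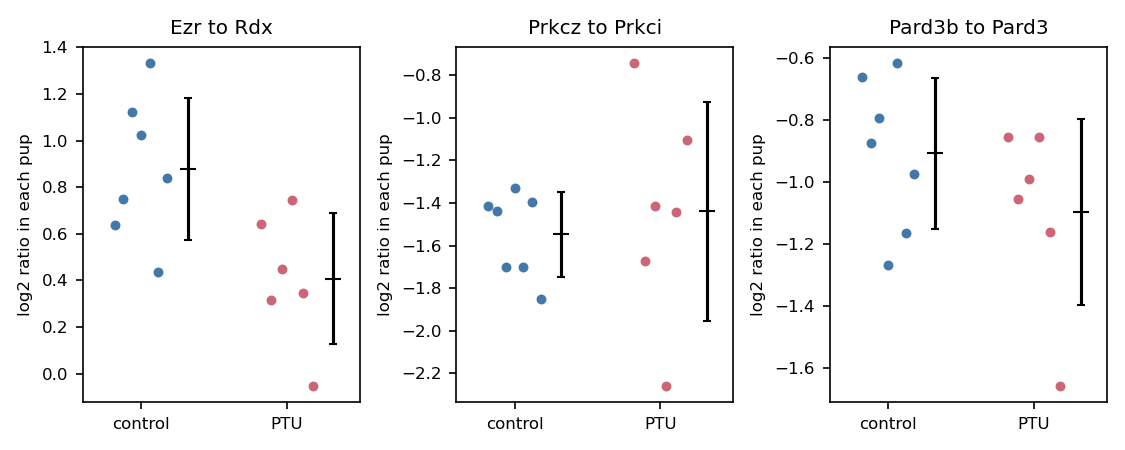
Log2 ratio of the normalized counts of related transcripts within each pup (vertical axes): *Ezr* to *Rdx*, *Prkcz* to *Prkci*, and *Pard3b* to *Pard3*. Points are pups and bars are means with SD; for *Ezr* to *Rdx* the means are 0.88 in control and 0.41 in PTU pups, and in the other 2 ratios the means lie within 1 SD of the control pups.

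*Crb2* (transcript ENSRNOT00000037257) encodes an apical transmembrane protein of the Crumbs complex. Control pups held from 966 to 1937 normalized counts (median 1207) and PTU pups from 557 to 1248 (median 848). PTU pups were below the control mean in 6 of 6 cases and below the lowest control pup in 4, but PTU pups 2 and 4 lay among the controls. The means were 1304 ± 343 (SD, n = 7) and 895 ± 267 (SD, n = 6), a ratio of 0.686. The log2 fold change was -0.56 (SE 0.19, 95% interval -0.96 to -0.16, limma, adjusted p = 0.175). In the exact permutation test (two-sided), the unadjusted p was 0.0297 and the p adjusted over all rows 0.285. With the same total for every pup, the log2 fold change was -0.36 (adjusted p = 0.478).

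Thyroid hormone receptors bind DNA at repeats of a half-site spelled AGGTCA. The 250 bases before the start of each gene, from RefSeq on the build GRCr8, were searched for these letters on both strands (TGACCT on the other). They are shown for the members with the largest differences, *Ezr* at chr1:49416574-49416823 on the minus strand and *Crb2* at chr3:41951650-41951899 on the plus strand, 5′ to 3′ along the gene; a match would be in capitals.
Ezr: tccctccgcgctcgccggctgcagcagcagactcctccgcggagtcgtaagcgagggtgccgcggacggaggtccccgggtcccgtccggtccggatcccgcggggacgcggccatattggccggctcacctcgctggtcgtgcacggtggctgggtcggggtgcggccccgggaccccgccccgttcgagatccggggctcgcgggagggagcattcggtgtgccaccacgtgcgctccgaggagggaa
Crb2: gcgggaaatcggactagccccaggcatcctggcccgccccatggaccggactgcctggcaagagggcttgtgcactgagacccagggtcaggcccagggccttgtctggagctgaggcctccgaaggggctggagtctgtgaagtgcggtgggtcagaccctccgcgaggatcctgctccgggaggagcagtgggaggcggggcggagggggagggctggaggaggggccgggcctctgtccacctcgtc
Neither window held the half-site, and it was in 0 of the 8 windows of members with an entry, where 14.1% of 33469 such windows held it. These letters are short and the windows end at the gene start, so nothing about the receptor follows from their absence. The windows of the 8 members were rich in G and C, from 61.2% in *Pard3b* to 79.2% in *Rdx*, above the median of 51.2% over all windows.

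In the Par complex, *Pard6b*, the adaptor that holds the kinase, had the log2 fold change farthest from 0 in the values as deposited. With the same total for every pup, that of *Prkcz* was farther, at 0.26. *Pard6b* had from 463 to 746 normalized counts in control pups (median 634), and the PTU pups had from 363 to 613 (median 510). Each PTU pup was below the control mean, although only 2 were below the lowest control pup. Its log2 fold change was -0.30 (SE 0.14, limma, adjusted p = 0.295). The unadjusted p was 0.044 in limma and 0.0565 in the exact permutation test (two-sided), on either side of 0.05, and the log2 fold change was -0.10 with the same total for every pup.

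The scaffold gene *Pard3* was close in both groups, from 1362 to 1768 normalized counts in control pups (median 1571) and from 1343 to 1566 after PTU exposure (median 1514), with means of 1529 ± 163 (SD, n = 7) and 1494 ± 77.3 (SD, n = 6). The 95% interval of its log2 fold change, -0.20 to 0.15, covers differences of that size in either direction. Its relative *Pard3b*, also a scaffold, ranged from 612 to 993 in control (median 883) and from 475 to 844 in PTU pups (median 733), and 5 of 6 PTU pups were below the control mean. Its means were 822 ± 142 and 708 ± 125 (log2 fold change -0.22, 95% interval -0.51 to 0.08, limma, adjusted p = 0.455). Without PTU pup 6, the lowest, the log2 fold change was -0.11. The log2 ratio of *Pard3b* to *Pard3* within pups was -0.91 ± 0.24 (SD) in control pups and -1.10 ± 0.30 (SD) in PTU pups, a smaller difference than the spread between pups.

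*Prkci* and *Prkcz* encode the atypical protein kinase C isoforms iota and zeta. *Prkci* spanned 1344 to 1773 normalized counts in control pups (median 1648) and 1379 to 1612 in PTU pups (median 1539), so the PTU range fell inside the control range. Its means were 1580 ± 167 (SD, n = 7) and 1524 ± 89.3 (SD, n = 6), with a 95% interval of the log2 fold change from -0.23 to 0.13. *Prkcz* was the one member with a higher mean after PTU exposure, at 541 ± 67.6 and 582 ± 167 (log2 fold change 0.06, 95% interval -0.29 to 0.41, limma, adjusted p = 0.89). PTU pups spanned 334 to 823 normalized counts of *Prkcz*, a range that enclosed all control pups (461 to 664). Without PTU pup 1, the highest, the log2 fold change was -0.05. The log2 ratio of *Prkcz* to *Prkci* was -1.55 ± 0.20 (SD) in control pups and -1.44 ± 0.51 (SD) in PTU pups.

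*Llgl1*, the basolateral determinant, had a control mean of 3980 ± 250 normalized counts (SD, n = 7; range 3701 to 4449, median 3931) and a PTU mean of 3690 ± 839 (SD, n = 6; median 3723). PTU pups lay on both sides of the controls: PTU pups 1, 3 and 6 were below the lowest control pup, at 2518, 3130 and 3253, while PTU pups 4 and 5 were above the highest, at 4486 and 4560. The log2 fold change was -0.14 (95% interval -0.40 to 0.12, limma, adjusted p = 0.581), and it was -0.0363 without PTU pup 1.

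In this bulk measurement, fewer cells of a type and less RNA per cell cannot be told apart, and marker transcripts of several cell types also had unequal group means. The marker lists too were chosen with earlier results of these data known, so the counts below are a description. They stand against 49.3% of all rows with a lower mean of log2 values and, with an unadjusted p under 0.05, 8.20% lower and 8.11% higher. All 9 radial glia markers, *Sox2*, *Pax6*, *Vim* and *Nes* among them, were present in every pup; all 9 had lower means in PTU pups, 5 of them with an unadjusted p under 0.05, and their sum ranged from 74726 to 104143 normalized counts in control and from 61911 to 82327 in PTU pups. Choroid plexus markers were also present in every pup, although the study describes choroid plexus cells as left out of the sequenced samples. Of these 10, *Ttr* among them, 10 had lower means in PTU pups and 5 an unadjusted p under 0.05, with a sum from 51087 to 142618 in control and from 23741 to 102473 in PTU pups. Of the 7 ependymal markers found, 6 had lower means and 4 an unadjusted p under 0.05 (sum from 2923 to 5161 and from 1900 to 4344); *Foxj1* was not among the names. All 10 neuron markers had higher means, 6 of them with an unadjusted p under 0.05, and their sum ranged from 40784 to 64537 in control and from 59568 to 85578 in PTU pups. Of the 6 endothelial markers found, 5 had higher means and 0 an unadjusted p under 0.05 (sum from 1817 to 2619 and from 1860 to 2868). Microglia, oligodendrocyte lineage and erythrocyte markers had higher means in 5 of 8, 5 of 5 and 0 of 2 rows found. With an unadjusted p under 0.05, 1 microglia marker was higher and 1 lower, 1 oligodendrocyte lineage marker was higher, and 0 erythrocyte markers were either. No marker of these lists was at 0 in any pup, and 0 had an adjusted p of at most 0.05 in limma.

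**Figure D3:**
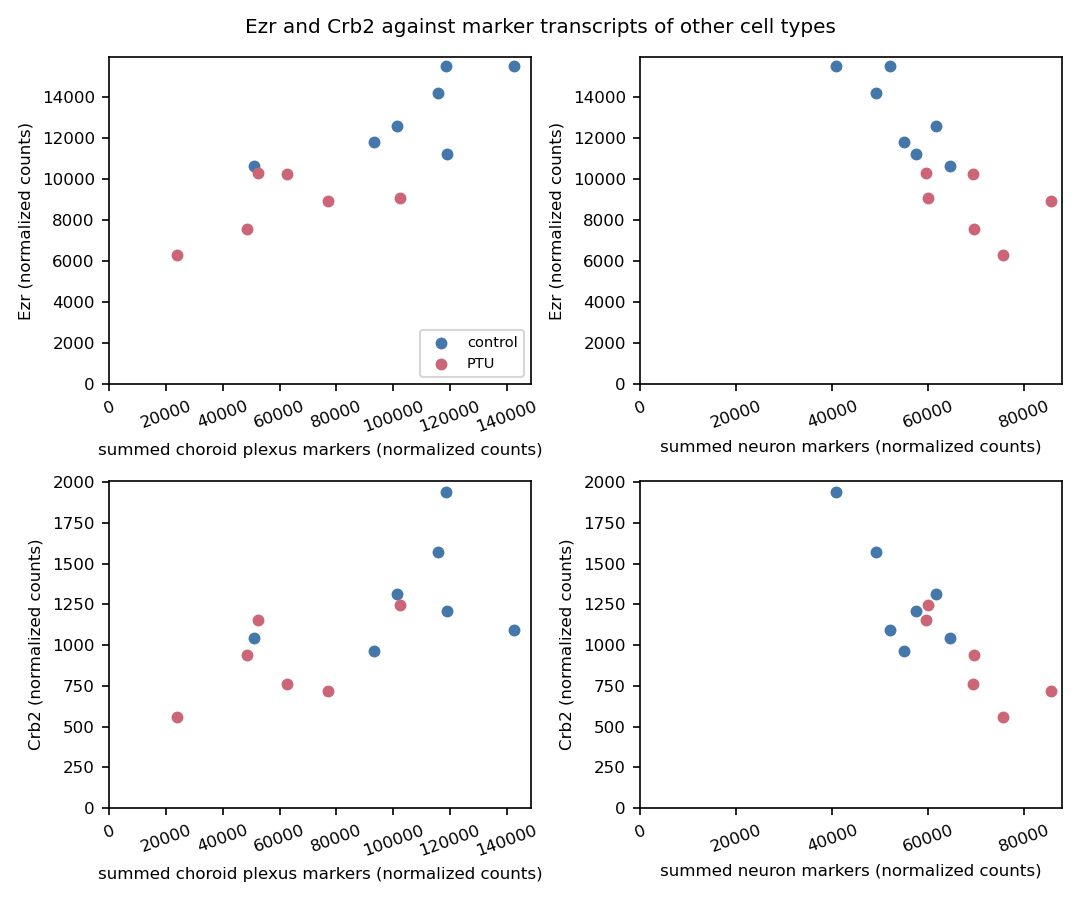
*Ezr* (top) and *Crb2* (bottom) in normalized counts against the summed normalized counts of choroid plexus markers (left) and neuron markers (right), 1 point per pup. PTU pup 6 has the lowest *Ezr*, at 6310, the lowest *Crb2*, at 557, and the lowest choroid plexus sum, at 23741; control pup 5 has the highest *Crb2*, at 1937, and the lowest neuron sum, at 40784.

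Of these lists, the choroid plexus, neuron and endothelial markers were used as covariates, and the radial glia, ependymal and other lists were not. With the mean log2 level of the choroid plexus markers as a covariate, the log2 fold change of *Ezr* was -0.40 (SE 0.12, limma, adjusted p = 0.235), and that of *Crb2* was -0.28 (SE 0.18, adjusted p = 0.536). With the neuron markers as the covariate, the values were -0.46 for *Ezr* and -0.20 for *Crb2* (limma, adjusted p = 0.586 and 0.79). With the endothelial markers they were -0.50 and -0.44. Control pup 6 and PTU pup 2 had similar choroid plexus sums, 51087 and 52391, and their *Ezr* values, 10623 and 10284, were the closest of the 2 groups. PTU pups 5 and 6 had sums of 48668 and 23741 and *Ezr* values of 7579 and 6310, the lowest of all pups in both. PTU pup 4 had a sum of 102473, above that of 3 control pups, and an *Ezr* value of 9066, below all control pups. For *Pard6b*, the log2 fold change was -0.19 with the choroid plexus covariate and -0.07 with the neuron covariate. The part of the marker levels in these results was not tested.

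**Figure D4:**
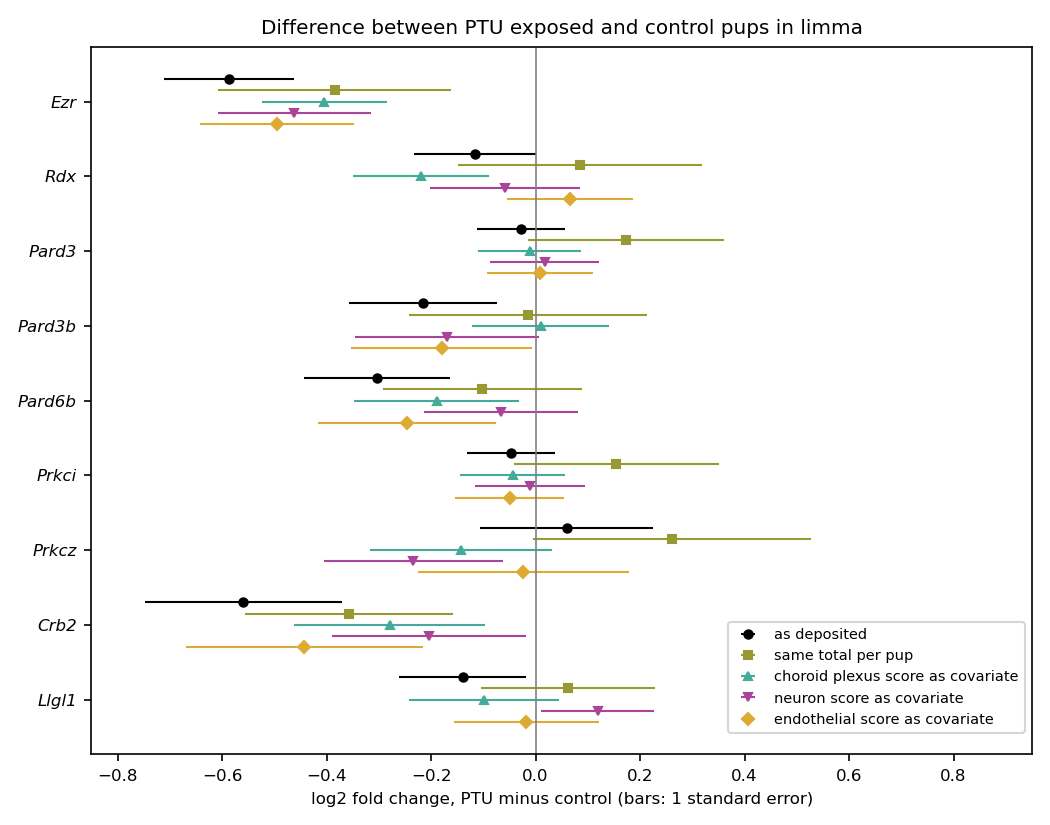
Log2 fold change of each member, PTU exposed minus control pups, in limma (horizontal axis; bars are 1 standard error), as deposited, with the same total for every pup, and with the marker score of another cell type as a covariate. *Ezr* stays between -0.59 and -0.38 and *Crb2* between -0.56 and -0.20, and *Pard6b* also stays below 0, while the other 6 members lie on both sides of 0.

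Genes that work with the members were taken from 5 lists, which were chosen with earlier results of these data known. The shares below are therefore a description. Of 53 names, 48 were found (4 of the other 5 are further names of genes that were found). With an unadjusted p under 0.05 in limma, 7 of the 48 (14.6%) were lower and 1 (2.08%) higher in PTU pups, against 8.20% and 8.11% of all rows, and 0 had an adjusted p of at most 0.05. Log2 fold changes were below 0 for 30 of the 48, against 49.3% of all rows: 1 of 5 Par complex partners, 6 of 8 Crumbs complex genes, 10 of 12 basolateral determinants, 5 of 11 ezrin partners and 8 of 12 genes of the apical junction belt. With an unadjusted p under 0.05, 2 of the 8 Crumbs complex genes were lower, *Crb1* and *Crb3*, and 0 were higher. *Crb1*, a relative of *Crb2*, averaged 417 ± 75.1 normalized counts (SD) in control and 296 ± 26.5 in PTU pups (log2 fold change -0.48, limma, adjusted p = 0.14). *Crb3* had means of 53.7 ± 21.6 and 31.4 ± 16.7 (log2 fold change -0.82, SE 0.36, adjusted p = 0.273). The row of this list with the highest normalized count, which is not per length, was *Lin7c*, a small scaffold (log2 fold change 0.17, adjusted p = 0.409), and *Lin7a*, at 19.3 ± 12.9 and 39.7 ± 24.0, had a standard error of 0.53 on a log2 fold change of 1.11.

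Of the 12 basolateral determinants, 2 were lower and 0 higher with an unadjusted p under 0.05, against 8.20% and 8.11% of all rows. *Dlg1*, a scaffold of the lateral membrane, did not overlap between groups, as was so for 0.260% of all rows in this direction: in normalized counts, the lowest control pup was at 1861 (highest 2384) and the highest PTU pup at 1705 (lowest 1444). Its log2 fold change was -0.37 (SE 0.08, limma, adjusted p = 0.122), and exact permutation (two-sided) gave 0.000583, which is unadjusted and the smallest p that 7 against 6 pups allow. *Llgl2*, a relative of *Llgl1*, had means of 96.8 ± 42.7 and 47.2 ± 24.8 (log2 fold change -1.14, SE 0.40, adjusted p = 0.191). The row with the highest normalized count, *Dlg5*, had a log2 fold change of -0.10 (adjusted p = 0.594).

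In the apical junction belt, cadherin contacts join neighbouring endfeet. Of its 12 genes, 2 were lower and 1 higher with an unadjusted p under 0.05, against 8.20% and 8.11% of all rows. *Shroom3*, a regulator of apical constriction, averaged 2438 ± 296 normalized counts (SD) in control and 1807 ± 394 in PTU pups (a log2 fold change of -0.45, SE 0.12, limma, adjusted p = 0.136). *Cdh2*, which encodes N-cadherin and had the highest normalized count of the list, averaged 14212 ± 691 and 12340 ± 1250 (log2 fold change -0.21, adjusted p = 0.216). *Ctnna2*, a neuronal alpha catenin, was on the higher side (log2 fold change 0.23, adjusted p = 0.217), while *Ctnnb1*, *Afdn* and *Tjp1* had log2 fold changes of 0.0095, -0.0048 and -0.03.

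The last list held partners of ezrin itself. Of 11 scaffolds, kinases and membrane partners, only *Podxl* had an unadjusted p under 0.05, where 8.20% of all rows were lower and 8.11% higher. *Podxl* encodes the sialomucin podocalyxin that ezrin anchors (a log2 fold change of -0.19, SE 0.09, limma, adjusted p = 0.303). The scaffold genes *Slc9a3r1* and *Slc9a3r2* had a log2 fold change of -0.19 and of -0.16 (adjusted p = 0.417 and 0.645), and the kinase genes *Slk*, *Stk10*, *Rock1* and *Rock2* lay between -0.05 and 0.16. *Arhgdia*, with the highest normalized count, had 0.17 (adjusted p = 0.474). None of the 5 Par complex partners had an unadjusted p under 0.05, and the one with the highest normalized count, *Cdc42*, the GTPase that activates the complex, had a log2 fold change of 0.03 (adjusted p = 0.884).

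**Figure D5:**
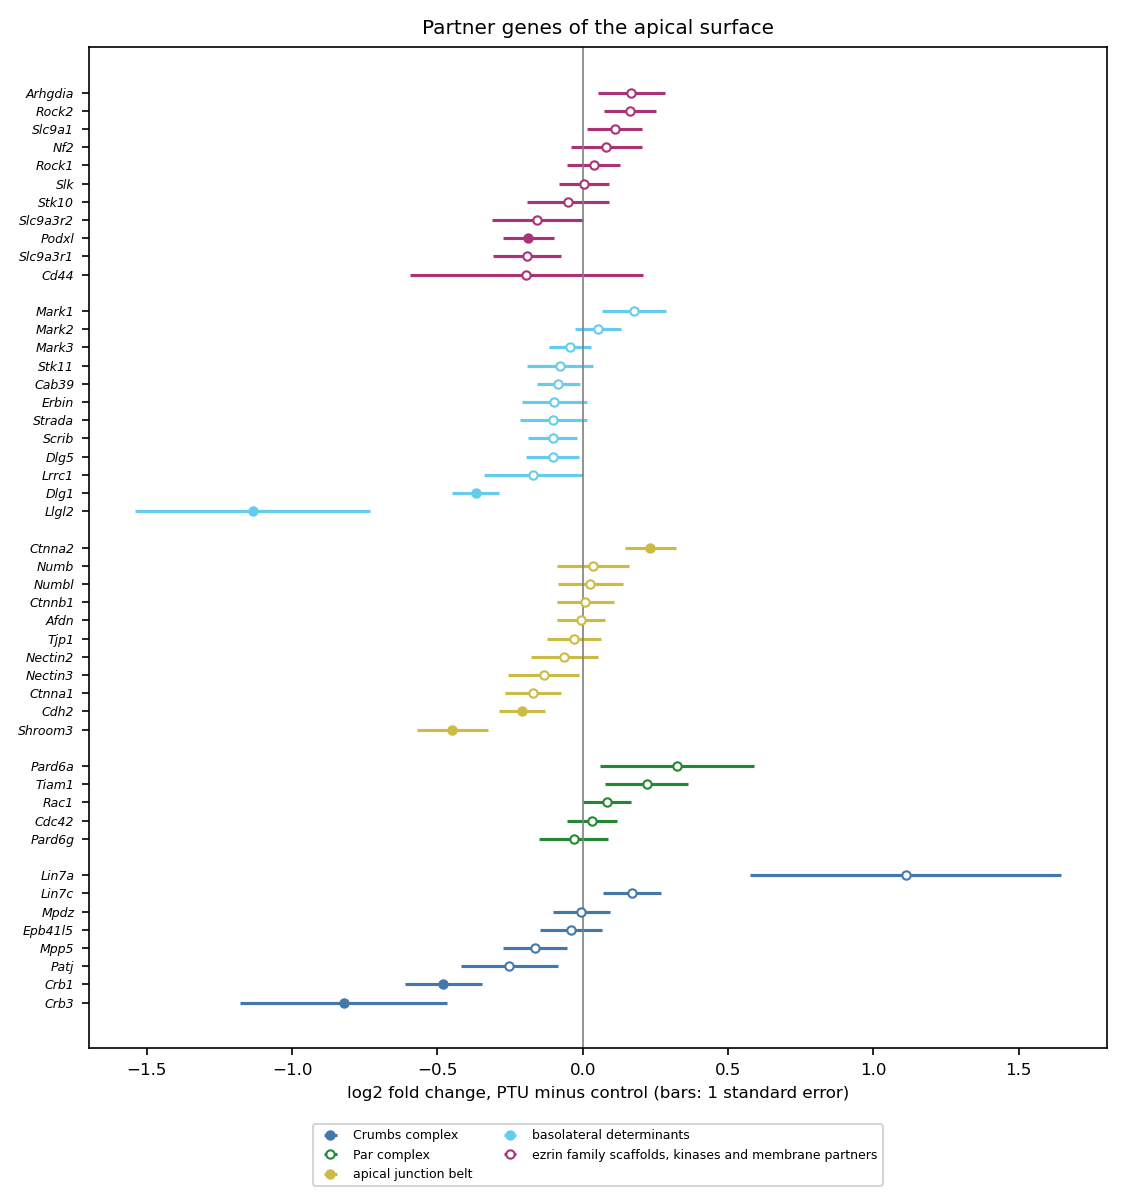
Log2 fold change of 47 of the 48 partner genes, PTU exposed minus control pups, in limma (horizontal axis; bars are 1 standard error), coloured by list. Filled points have an unadjusted p under 0.05 (7 below 0 and 1 above), open points do not, and none passed after adjustment.

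The transcripts whose levels ran most like those of the members were sought among 11086 named rows with a mean of at least 100, by Pearson r of log2 values centred within groups over the 13 pups. Both rows of a pair come from the same 13 libraries and share their depth and scaling, so r is a description. For *Ezr* these were *C1r*, a complement protease (r = 0.931), and *Angptl2*, a secreted glycoprotein (r = 0.928), with log2 fold changes of -0.79 and -0.33. *Rdx* ran with *Chd1* and *Cep63* (r = 0.958 and 0.929), *Crb2* with the tetraspanin gene *Cd9* and with *Tril* (r = 0.922 and 0.914), and *Llgl1* with *Rnh1* and *Park7* (r = 0.925 and 0.924). In the Par complex, *Pard3* ran with *Dll4* and *Fanci* (r = 0.827 and 0.819), *Pard3b* with *Cpt1a* and *Atf6* (r = 0.908 and 0.893), *Pard6b* with *L3hypdh* and *Rpp14* (r = 0.961 and 0.936), *Prkci* with *Tnfaip1* and *Bloc1s6* (r = 0.835 and 0.804) and *Prkcz* with *Tbc1d30* (r = 0.937). No member was among the 2 rows most like another member.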

How the data were processed

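Total RNA-Seq was done on the laser captured posterior VZ of 13 pups. Per the labels and methods, the authors used Trimmomatic to trim reads, STAR 2.7.8a for alignment to mRatBN7.2, the E/M model of Partek for counting and median ratios for scaling. The deposited values are therefore a scaled signal and not raw counts, and are termed normalized counts. The file also holds columns of the authors' own comparison made with DESeq2 (p-values, ratios and group means), which were not used. Of 14716 rows, 1488 have no gene name.

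The log2 of each value plus 1 was taken, a scale on which changes of scarce transcripts are understated. limma 3.58.1 (R 4.3.3, eBayes with trend) was run on the 14606 rows whose mean reached 10, with Benjamini-Hochberg adjustment over all of them and a threshold of 0.05; intervals are 95% intervals of that model. The exact permutation test covered all 1716 regroupings. The study used a count model, for which these values are not suited. Python 3.11.15, numpy 2.4.6, pandas 2.3.3 and scipy 1.17.1 served for other steps. Both tests were tested on simulated data. Estimated reads were between 22295663 and 44388371 per pup (median 35213399 in control and 34261640 in PTU pups), from the step between low values, of which 89.9 to 91.6% were whole within 0.1, too few to recover counts. The 3 highest rows, without gene names, took from 23.9 to 60.1% of the total (median 50.9% in control and 35.8% in PTU pups).

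The members, partner lists and marker lists were chosen with earlier results of these data known. Named partners are the 10 with the smallest p and the one with the highest mean normalized count of each list; *Ctnnb1*, *Afdn*, *Tjp1*, the *Slc9a3r* genes and the kinases were named after their values were seen. Of these partners 1, and of the rows most like a member 1, are not reported here. Ratios with *Msn* could not be formed. The alternatives concerned pseudocount, filter, scaling, row unit, weights, variance prior, covariates, a block on the replicate number and the omission of each pup. No batch is given in the sources used here. Transcript lengths were not at hand, so a higher normalized count of one gene than of another is not a higher level per length.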

Additional observations from a re-analysis of the deposited data

Results flagged for a closer look

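In PTU exposed pups, *Pard3* had 1 pup that stood apart: PTU pup 1 had 1343 normalized counts, and the next lowest pup had 1499. The gap was 0.70 of the range of the group, above the critical value of 0.625 of Dixon's test for 6 samples. Of 18 groups tested (9 members in both groups), 1 was marked in this way, and chance marks about 1 in 20.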

How the results depend on the processing

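The 29 alternatives gave 261 log2 fold changes of the members, of which 243 kept their direction and their side of the threshold, 3 passed it and 15 changed sign. *Ezr*, *Crb2* and *Pard6b* kept a negative sign under all 29, and *Ezr* ranged from -0.64 to -0.38. Rows called, 0 as reported, were 40 with array quality weights and 4 with the choroid plexus score as a covariate, and from 0 to 179 with each pup left out (7 without control pup 6, 179 without PTU pup 2). Members called, 0 as reported, were 1 with array quality weights and from 0 to 1 with each pup left out; *Ezr* was that member. With the replicate number as a block, 18 rows and 1 member, *Ezr* (log2 fold change -0.62, adjusted p = 0.0414 in limma), were called, but same-numbered pups come from different litters, the correlation of their deviations lay between -0.07 and 0.198, over 0.1 in 4 of 6 pairs, and 1 of 6 PTU exposed pups correlated best with its own number, so the numbers do not pair the pups. Rows with an unadjusted p under 0.05, 2383 as reported, were 1185 with the neuron and 1320 with the endothelial score as a covariate. Members with an unadjusted p under 0.05, 3 as reported, were 1 with each of the choroid plexus, neuron and endothelial scores (*Ezr* each time) and 0 with the same total for every pup. Sign changes with the same total were 0.0857 for *Rdx*, 0.17 for *Pard3*, 0.15 for *Prkci* and 0.0617 for *Llgl1*; with the choroid plexus score, 0.01 for *Pard3b* and -0.14 for *Prkcz*; with the neuron score, 0.017 for *Pard3*, -0.23 for *Prkcz* and 0.12 for *Llgl1*; with the endothelial score, 0.0652 for *Rdx*, 0.0086 for *Pard3* and -0.0232 for *Prkcz*. With each pup left out, *Pard3* ranged from -0.0545 to 0.0082 (above 0 without control pup 4 and, at 0.0023, without PTU pup 1) and *Prkcz* from -0.0516 (without PTU pup 1) to 0.21. The causes were not tested. With the same total computed without the 3 highest rows, *Ezr* had -0.58. Leaving out each pup gave *Rdx* from -0.19 to -0.0511, *Pard3b* from -0.28 to -0.11, *Prkci* from -0.0848 to -0.0183 and *Llgl1* from -0.21 to -0.0363. *Prkcz*, the member with the fewest estimated reads, had at least 344 in every pup, a counting error of at most 5.39%, which covers counting only.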

Other observations

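The spread between pups differed by member. In *Llgl1* the SD was 6.27% of the mean in control and 22.7% in PTU exposed pups, and in *Prkcz* it was 12.5% and 28.7%. In *Pard3* it was 10.7% and 5.17%, and in *Prkci* 10.6% and 5.86%. These differences in spread were seen in the data first and were not tested. *Prkcz* and *Crb2* were placed in opposite order in some PTU exposed pups: PTU pup 1 had the highest *Prkcz*, at 823 normalized counts, and a low *Crb2*, at 716, whereas PTU pup 4 had the lowest *Prkcz*, at 334, and the highest *Crb2* of its group, at 1248. The opposite order was not particular to *Crb2*. By Pearson r of log2 values centred within groups, *Prkcz* had -0.70 with *Crb2*, -0.71 with *Pard6b* and -0.75 with *Llgl1*. PTU pup 4 also had the highest choroid plexus marker sum of its group, at 102473, and PTU pup 1 the highest neuron marker sum, at 85578.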
